A study of Mus musculus with 15 samples.

Results

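The 7 mature strands described here are all the products of the mouse miR-192, miR-194 and miR-215 hairpins that the count tables list. They were chosen by name: mmu-miR-192-5p, mmu-miR-192-3p, mmu-miR-194-5p, mmu-miR-194-1-3p, mmu-miR-194-2-3p, mmu-miR-215-5p and mmu-miR-215-3p, written below without the mouse prefix. They are 7 of 1558 miRNA names in the tables, and each was looked up in all 15 libraries. The libraries came from a commercial panel of mouse total RNA sold by Takara, with 1 library each for smooth muscle, liver, kidney, stomach, testis, spleen, salivary gland, heart, lung, brain, spinal cord and eye, and 1 each for whole embryos of 11, 15 and 17 days. The 17-day embryo is so called in its title, while another label field of the same library gives 15 days; the title was used. No genetic change or treatment is named for any library, and strain, sex, number of animals and the age of the animals that gave the tissues were not given in the sources used here. Each was made by AQ-seq, a small RNA sequencing protocol with randomized adapters that lowers ligation bias. With 1 library a tissue there is no replicate, so no test between tissues was possible, and every interval below is a 95% interval for counting error only. Reads were amplified by PCR and are not independent molecules, so the true error is wider.

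A miRNA is cut from a hairpin in its primary transcript, which can yield a mature strand from the 5′ arm (5p) and from the 3′ arm (3p). The seed, bases 2 to 8 of the mature strand, does most of the pairing with target mRNAs. These 3 miRNAs are known from epithelia of the gut, liver and kidney, and in human cells transcription of their clusters is known to respond to p53. Mouse has 2 clusters of them, each with a miR-194 hairpin beside either miR-192 or miR-215, so that reads of miR-192 and miR-215 report on different clusters.

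The hairpins are shown first because their arrangement defines what each name can tell. They are the RefSeq entries on build GRCm38.p6, all on the + strand, written 5′ to 3′ with the mature strands in capitals. The chromosome 19 cluster holds Mir194-2 at chr19:6264643-6264728 and Mir192 at chr19:6264844-6264932, with 115 bases between them.
Mir194-2: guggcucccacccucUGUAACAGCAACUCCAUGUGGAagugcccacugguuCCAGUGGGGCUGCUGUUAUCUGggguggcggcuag
Mir192: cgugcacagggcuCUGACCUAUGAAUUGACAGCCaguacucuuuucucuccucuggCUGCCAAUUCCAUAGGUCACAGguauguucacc
The chromosome 1 cluster holds Mir194-1 at chr1:185313319-185313385 and Mir215 at chr1:185313581-185313692, with 195 bases between them.
Mir194-1: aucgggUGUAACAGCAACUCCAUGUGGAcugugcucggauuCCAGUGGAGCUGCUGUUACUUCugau
Mir215: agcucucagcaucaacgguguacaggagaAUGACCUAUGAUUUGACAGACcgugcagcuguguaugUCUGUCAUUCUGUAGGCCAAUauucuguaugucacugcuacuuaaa
In the GENCODE annotation of the same build, Mir194-1 lies in an intron and Mir215 in an exon of the antisense gene 2010103J01Rik on the + strand. Both also lie within an intron of Iars2, which encodes the mitochondrial isoleucyl-tRNA synthetase and runs on the opposite strand. Mir194-2 and Mir192 overlap no other annotated gene.

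The mature strands are given with the seed in capitals, because the seeds show which names could share targets and the remaining bases show which reads can be told apart.
miR-192-5p: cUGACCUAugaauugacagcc
miR-215-5p: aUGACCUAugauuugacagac
miR-194-5p: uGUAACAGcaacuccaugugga
miR-192-3p: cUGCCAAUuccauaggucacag
miR-215-3p: uCUGUCAUucuguaggccaau
miR-194-2-3p: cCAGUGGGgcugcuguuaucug
miR-194-1-3p: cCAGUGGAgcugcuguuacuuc
miR-192-5p and miR-215-5p have the same seed, UGACCUA, which no other of the 1679 mature miRNA names in the RefSeq table carries. They are identical at 18 of 21 bases and differ by C1A, A12U and C20A, with miR-192-5p first and positions counted from 1 at the 5′ end. miR-194-5p is identical from both clusters, so its reads cannot be assigned to either. The 3p strands of miR-194 can be assigned: they are identical at 18 of 22 bases and differ by G8A, U19C, C20U and G22C, with miR-194-2-3p first. G8A falls in the seed, so the 3p strands of miR-194 have different seeds, and so have miR-192-3p and miR-215-3p. Apart from miR-194-5p, no stretch of 18 bases of any member occurs in a second mouse hairpin of that table.

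Library depth was 148052 listed miRNA reads in testis and between 922137 and 3161463 in the other 14 libraries. Levels are counts per 1000000 listed reads (CPM). The labels were checked against tissue miRNAs: the hepatocyte miRNA miR-122-5p had 311546 CPM in liver, and a list of 5 kidney-enriched miRNAs summed to 126728 CPM in kidney, its highest value. That sum was carried by miR-30c-5p, with 79113 CPM; of the 5, miR-204-5p was highest in eye, miR-30a-5p in lung and miR-196a-5p in the 11-day embryo, and miR-30c-5p and miR-10a-5p were highest in kidney. The smooth muscle library had 156881 CPM of 4 smooth muscle miRNAs, against 268327 CPM in stomach and at most 55535 CPM elsewhere. It also had 52587 CPM of the 5 epithelial miR-200 family strands, against 59725 CPM in stomach, 26510 CPM in kidney and 996 CPM in liver. Of 5 striated muscle miRNAs, 4 had reads there and summed to 2274 CPM, mostly miR-133a-3p (1168 CPM) and miR-1a-3p (1089 CPM), while miR-206-3p had 0 reads. The labels do not say which organ the smooth muscle came from. In whole-tissue RNA, fewer cells of a type and less RNA per cell cannot be told apart.

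The members took up a large share of the reads in a few libraries and very little in most. All 7 together made up 28.8% of the reads in smooth muscle, 4.27% in liver, 2.37% in kidney, 1.30% in stomach and 0.476% in the 17-day embryo. In the other 10 libraries they made up 0.0417% to 0.204%. All 7 had their highest level in smooth muscle.

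miR-192-5p, the main strand of the mir-192 hairpin on chromosome 19, had 35277 CPM in smooth muscle, 20587 CPM in liver, 11396 CPM in kidney and 2555 CPM in stomach. Its level was 566 CPM in the 11-day, 689.8 CPM in the 15-day and 1480.3 CPM in the 17-day embryo, and 547 CPM in testis. In the 7 other tissues it lay between 132 CPM (lung) and 278 CPM (spleen). The order is thus led by smooth muscle, liver, kidney and stomach, and the counting intervals of these 4 do not overlap. Further down, 6 of the 14 neighbouring pairs in the order have overlapping intervals. The lower order also depended on the scaling. With TMM scaling, a method that sets libraries level on the bulk of the names, the same 4 libraries led. The 15-day embryo, at 355.4 CPM, was then level with heart, at 355.8 CPM. The 11-day embryo, at 275.9 CPM, was below spleen, at 324.9 CPM.

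miR-215-5p, which carries the same seed from the chromosome 1 cluster, had a different order. It had 96410 CPM in smooth muscle, 1427 CPM in stomach, 882 CPM in the 17-day embryo and 243 CPM in testis. The 15-day embryo had 70.2 CPM, spinal cord 55.3 CPM, heart 37.8 CPM, spleen 34.6 CPM and the 11-day embryo 20.6 CPM. Liver and kidney, among the highest libraries for miR-192-5p, were among the lowest here. Liver had 10 reads (5.76 CPM) and kidney 7 reads (4.87 CPM), beside 7.74 CPM in lung, 4.73 CPM in eye, 3.36 CPM in salivary gland and 1.90 CPM in brain.

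miR-194-5p, made by both clusters, had 147721 CPM in smooth muscle, 21562 CPM in liver, 12006 CPM in kidney and 8638 CPM in stomach. It had 677 CPM in the 11-day, 783 CPM in the 15-day and 2289 CPM in the 17-day embryo, and 1202 CPM in testis. The 7 other tissues lay between 273 CPM (lung) and 518 CPM (brain). With TMM scaling the 11-day embryo, at 329.9 CPM, was 14th of the 15 libraries for miR-194-5p, below lung, at 355.6 CPM. By rank among all names within a library, miR-194-5p was 1st in smooth muscle, 10th in liver, 24th in stomach and 27th in kidney, and miR-215-5p was 3rd in smooth muscle.

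**Figure D1:**
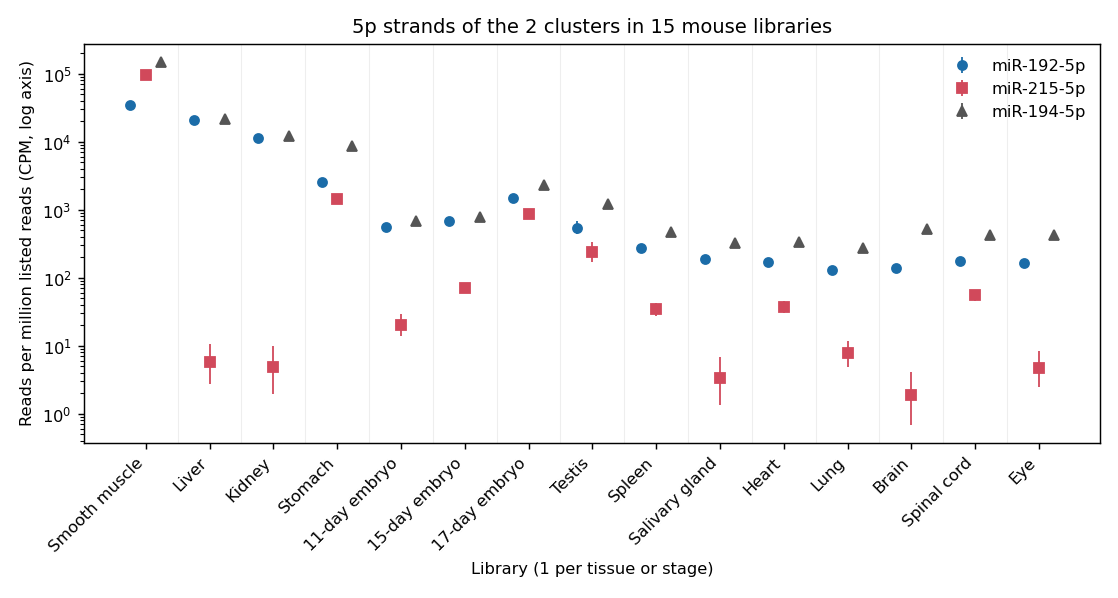
Levels of miR-192-5p, miR-215-5p and miR-194-5p in each of the 15 libraries, on a log axis in CPM; bars are 95% counting intervals, with 1 library a tissue. miR-192-5p and miR-194-5p are both at 11396 CPM or above in smooth muscle, liver and kidney, while miR-215-5p is at 96410 CPM in smooth muscle and below 6 CPM in liver and kidney.

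The passenger strands, which are the less abundant arm of each hairpin, split by cluster in the same way. miR-192-3p had 637 CPM in smooth muscle, 371 CPM in liver, 237 CPM in kidney and 118 CPM in stomach, and at most 30.5 CPM in the other 11 libraries. miR-194-2-3p, from the same cluster, had 341 CPM in smooth muscle, 152 CPM in liver, 68.2 CPM in kidney and 82.4 CPM in stomach, and at most 16.4 CPM elsewhere. Both chromosome 19 passenger strands were thus counted in all 4 of these libraries.

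The chromosome 1 passenger strands were not. miR-215-3p had 5966 CPM in smooth muscle and 134.5 CPM in stomach, and 1 read in liver and 0 reads in kidney. miR-194-1-3p had 1601 CPM in smooth muscle and 85.7 CPM in stomach, and again 1 read in liver and 0 in kidney. For 0 reads in kidney the counting interval reaches up to 2.57 CPM, and the limit of 3 reads used for figures and ratios is 2.09 CPM. The 17-day embryo had 49.1 CPM of miR-215-3p and 9.52 CPM of miR-194-1-3p.

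**Figure D2:**
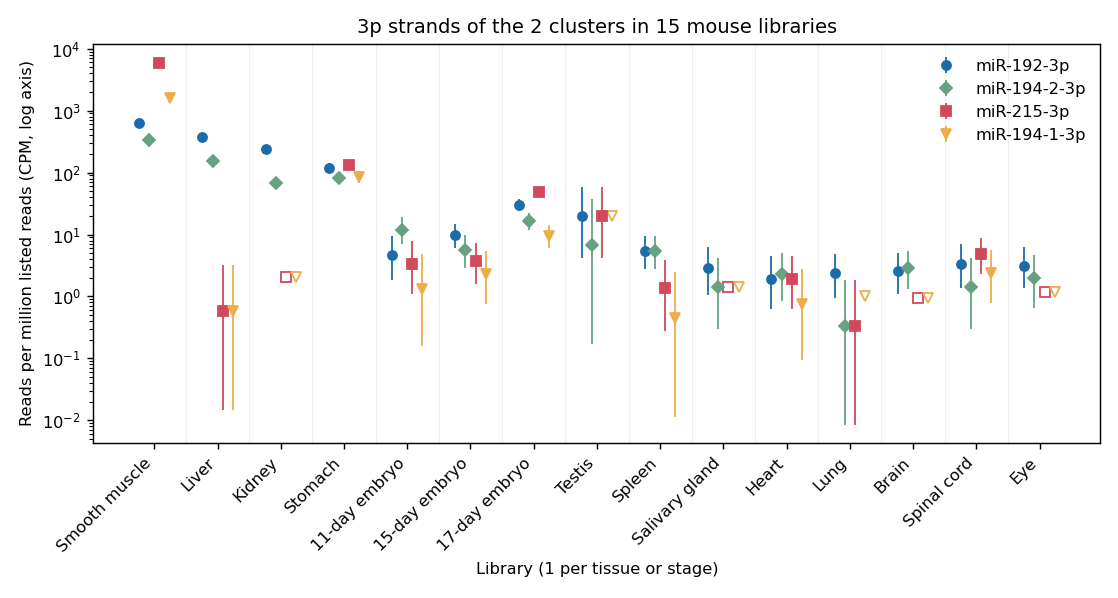
Levels of the 4 passenger strands in each library, on a log axis in CPM with 95% counting intervals; open symbols mark 0 reads and are drawn at the limit of 3 reads. miR-192-3p and miR-194-2-3p are present in smooth muscle, liver, kidney and stomach, whereas miR-215-3p and miR-194-1-3p are high in smooth muscle and stomach and at 0 or 1 read in liver and kidney.

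The share of each cluster was then read from 3 pairs of strands that differ between them. The 3 readouts are not independent samples, since they come from the same libraries. In liver, miR-192-5p made up 99.97% of the reads of miR-192-5p and miR-215-5p (interval 99.95 to 99.99%), and in kidney 99.96% (99.91 to 99.98%). miR-194-2-3p made up 99.6% of the locus-numbered miR-194 3p reads in liver (97.9 to 99.99%, 264 reads) and all 98 of them in kidney, which gives an interval of 96.3 to 100%. miR-192-3p made up 99.8% of the miR-192-3p and miR-215-3p reads in liver and all 341 in kidney. By all 3 pairs, nearly every assignable read in liver and kidney was from the chromosome 19 cluster.

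These libraries also bound how often a miR-192-5p read was counted as miR-215-5p. The miR-215-5p reads were 0.0280% of the pair in liver (0.0134 to 0.0514%) and 0.0427% in kidney.

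In smooth muscle the chromosome 1 cluster led by every pair. miR-192-5p was 26.8% of its pair with miR-215-5p (26.6 to 27.0%), miR-194-2-3p was 17.6% of its pair with miR-194-1-3p (16.3 to 18.9%), and miR-192-3p was 9.65% of its pair with miR-215-3p (9.11 to 10.2%). The 3 values differ beyond counting error although their order of clusters is the same. The chromosome 19 cluster was not low there: miR-192-5p was 1.71 times its liver level and 3.10 times its kidney level, or 1.35 and 4.65 times with TMM scaling.

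Stomach lay between. miR-192-5p was 64.2% of its pair (62.6 to 65.7%), miR-194-2-3p was 49.0% (40.9 to 57.2%) and miR-192-3p was 46.8% (40.2 to 53.4%). The main strands thus put the larger number of reads on chromosome 19, while both intervals from passenger strands include an even split.

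**Figure D3:**
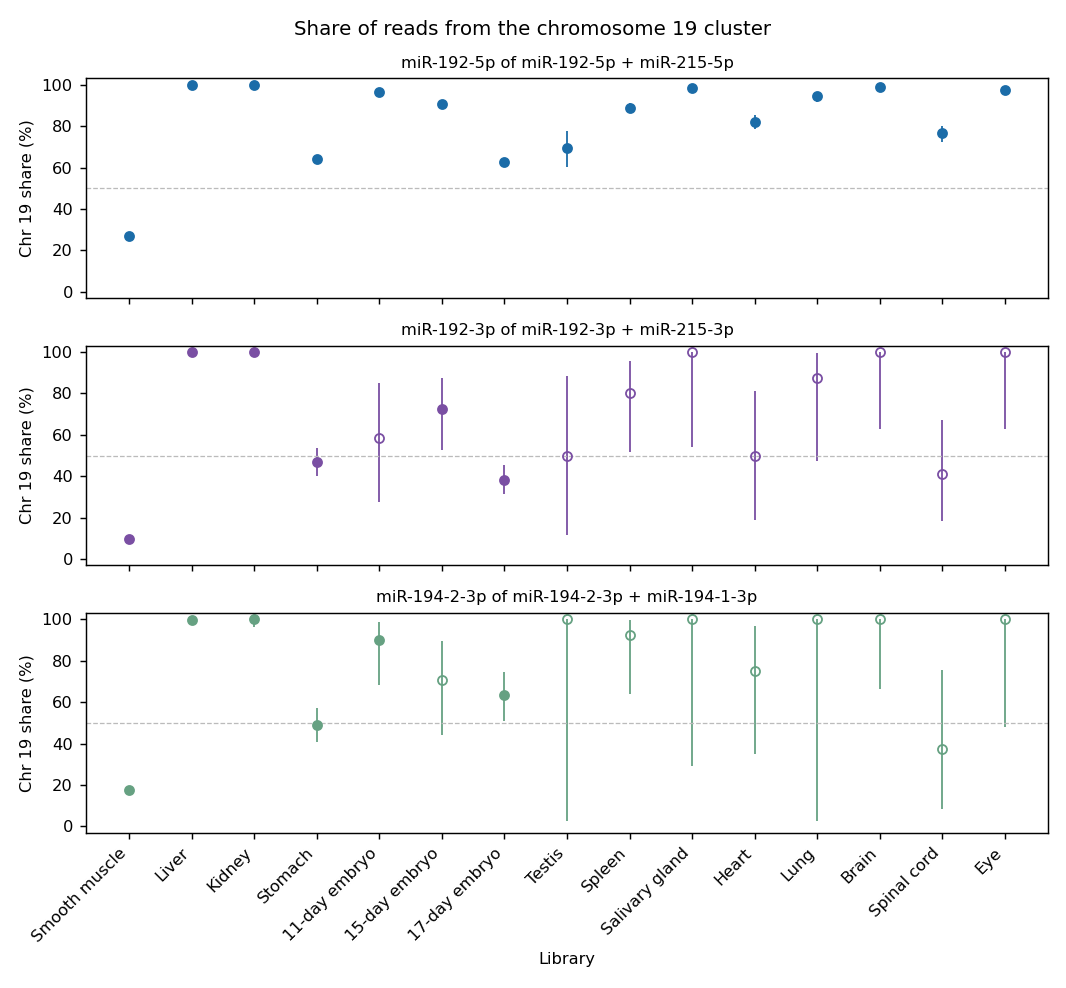
Percent of reads from the chromosome 19 cluster in each library by 3 pairs of strands, with 95% binomial intervals; open circles mark pairs with under 20 reads. Liver and kidney lie at 99.6% or above by all 3 pairs, smooth muscle at 9.65% to 26.8%, and stomach at 46.8% to 64.2%.

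The arms were used unevenly, and by different amounts in the different hairpins. The 3p strand was 1.77% of the mir-192 reads in smooth muscle, 1.77% in liver and 2.04% in kidney, but 4.42% in stomach (3.65 to 5.31%). Of mir-215 it was 5.83% in smooth muscle, 8.61% in stomach (7.21 to 10.2%) and 5.28% in the 17-day embryo. Wherever both hairpins had 20 reads, the mir-215 percentage was above that of mir-192, so the pair of miR-192-3p and miR-215-3p gives a lower share to chromosome 19 than their 5p strands do. For mir-194, both 3p strands together were 1.30% of reads in smooth muscle, 0.700% in liver, 0.565% in kidney and 1.91% in stomach. As miR-194-5p cannot be split, the 3p percentage of each mir-194 copy is unknown. Whether unequal arm use of the copies shifts the miR-194-2-3p share was therefore not tested. The 5p strand led in every library with at least 20 reads of a hairpin.

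miR-194-5p could not be split by sequence, but its total was set beside that of its neighbours. In liver and kidney it had 1.05 reads for each read of miR-192-5p and miR-215-5p together, in smooth muscle 1.12, and in the embryos 1.15 at 11 days, 1.03 at 15 days and 0.969 at 17 days. The value was higher in stomach, at 2.17 (2.09 to 2.26), in eye, at 2.44, and in brain, at 3.66 (3.30 to 4.08), and it was at most 1.95 in the 6 remaining tissues. If the chromosome 19 cluster gave the same ratio of miR-194-5p to miR-192-5p everywhere as in liver, it would account for 25.01% of the miR-194-5p reads in smooth muscle, leaving 1.15 reads for each miR-215-5p read. The same arithmetic gives 67.7% in the 17-day embryo, leaving 0.837. In stomach it gives 31.0% and leaves 4.18 reads for each miR-215-5p read, far above the other values. The ratio was not the same in every tissue: in brain, where miR-215-5p was 1.34% of its pair, there were 3.71 miR-194-5p reads for each miR-192-5p read.

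Levels in each library were also set against the median of the other 14 libraries, as log2 of the ratio after adding 5 CPM to both. Of the 1558 names, 622 had a mean of at least 10 CPM over the 15 libraries and were compared. All 7 members passed this filter, miR-194-1-3p only through smooth muscle: its mean was 114 CPM with that library and 7.36 CPM without it. Names at least 4-fold higher were counted as past 4-fold, which is a rule of size and not a test.

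In smooth muscle all 6 members that pass the filter without this library were at least 4-fold higher, against 4.66% of all names. That percentage is over the 622 names filtered with smooth muscle included, so the 2 sets were not filtered alike. miR-215-5p was higher by 11.53 on the log2 scale, miR-215-3p by 9.82 and miR-194-5p by 7.94, ranking 1st, 2nd and 4th among the 622 names. miR-194-1-3p was at 8.19, a value given as a description, since it was compared because of its level in this library. The chromosome 19 strands were higher by less, with miR-192-5p at 6.40, miR-192-3p at 6.001 and miR-194-2-3p at 5.04. The median over all names was -0.21. With no filter on low values, 7 of 7 members were past 4-fold, against 1.93% of the 1558 names.

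In stomach 7 of 7 members were also past 4-fold, against 6.27% of all names. The order again began with chromosome 1: miR-215-5p at 5.46, miR-215-3p at 4.40, miR-194-1-3p at 4.04, miR-194-5p at 3.84, miR-192-3p at 3.62, miR-194-2-3p at 3.06 and miR-192-5p at 2.62. The median over members was 3.84, against 0.04 over all names. These values rest on a median that most libraries keep low. Against the mean of the other 14 libraries, which smooth muscle raises, 0 of 7 were past 4-fold in stomach, against 1.61% of all names, 0 in kidney, against 1.61%, and 2 in liver, against 1.29%. The median of all names was then -1.53 in stomach, -1.73 in kidney and -2.22 in liver.

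In liver 4 of 7 members were past 4-fold, against 2.41% of all names, and in kidney 4 of 7, against 4.98%. They were the same 4, namely miR-194-5p and the 3 strands that come only from chromosome 19. miR-192-5p was higher by 5.62 in liver and by 4.77 in kidney, miR-192-3p by 5.23 and 4.59, miR-194-5p by 5.16 and 4.32, and miR-194-2-3p by 3.90 and 2.80. The chromosome 1 strands were at or below the others. miR-215-5p was at -1.94 in liver and -2.06 in kidney, where it was among 57 of 622 names at least 4-fold lower. miR-215-3p was at -0.45 in liver and -0.61 in kidney, and miR-194-1-3p at -0.01 and -0.18. Beside kidney, the medians of the other libraries were 2.61 CPM for miR-215-3p and 0.669 CPM for miR-194-1-3p. With 5 CPM added, 0 reads in kidney thus gave the lowest values possible for these strands. The median over members was 3.90 in liver, against -0.65 over all names, and 2.80 in kidney, against -0.06. With TMM scaling the median of all names in liver was -0.06.

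**Figure D4:**
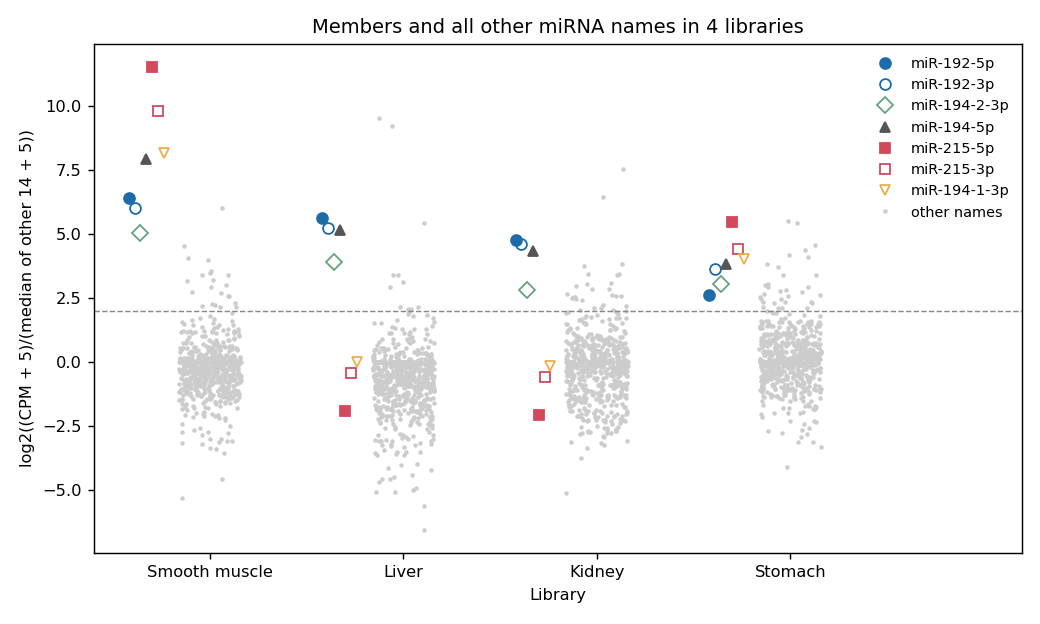
Difference of each name from the median of the other 14 libraries, in log2 units after adding 5 CPM, for smooth muscle, liver, kidney and stomach; large symbols are the 7 members, small grey points the other names compared, and the dashed line marks 4-fold. In smooth muscle all 6 members that pass the filter without this library are above the line, against 4.66% of all names filtered with it. The member compared only because of its smooth muscle level is also above it, which is a description. In stomach 7 of 7 are above the line, against 6.27% of all names. In liver 4 of 7 are, against 2.41%, and in kidney 4 of 7, against 4.98%. The chromosome 1 strands lie at or below 0 in liver and kidney.

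Among the remaining libraries, miR-215-5p and miR-215-3p were past 4-fold in the 17-day embryo, against 31% of all names, and miR-215-5p in testis, against 25.4%, so neither count stands out from its background. No member was at least 4-fold higher in the other 9 libraries. The share of all names past 4-fold there was 42.3% in the 11-day and 33.8% in the 15-day embryo, 26.4% in spinal cord, 25.4% in brain, 13.2% in eye, 4.5% in spleen, 4.02% in salivary gland, 3.86% in heart and 3.54% in lung. In the other direction, miR-215-5p was at -2.30 in salivary gland, -2.58 in brain and -2.08 in eye, and miR-192-5p at -2.03 in lung. At least 4-fold lower were 23 of 622 names in salivary gland, 62 in brain, 19 in eye and 37 in lung.

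Direct ratios between the 4 libraries show how unequal the clusters were. miR-215-5p was 67.6 times its stomach level in smooth muscle (64.0 to 71.4), and miR-192-5p 13.8 times (13.2 to 14.4). miR-194-5p lay between them at 17.1 times. Against kidney, where no read was counted, miR-215-3p was at least 2859-fold higher and miR-194-1-3p at least 767-fold higher in smooth muscle, taking 3 reads as the limit in the kidney library. Liver exceeded kidney by 1.81 times for miR-192-5p (1.77 to 1.84) and by 1.796 times for miR-194-5p. With TMM scaling these ratios were 3.44 and 3.42, so the size of the liver excess depended on the scaling and its direction did not.

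Whole embryos showed the clusters apart in time. miR-192-5p had 566 CPM at 11 days, 689.8 CPM at 15 days and 1480.3 CPM at 17 days, and its level at 17 days was 2.62 times that at 11 days (2.43 to 2.82). miR-194-5p was 3.38 times as high at 17 days as at 11 days. miR-215-5p had 20.6, 70.2 and 882 CPM at 11, 15 and 17 days, and was 42.8 times as high at 17 days as at 11 days (30.1 to 63.2). The miR-192-5p share of its pair with miR-215-5p was accordingly 96.5% at 11 days, 90.8% at 15 days and 62.7% at 17 days. The counting intervals of the 3 libraries do not overlap, which says nothing of the spread between embryos.

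The passenger strands had few reads at the early stages. miR-215-3p had 5 reads at 11 days, 8 at 15 days and 129 at 17 days, and miR-194-1-3p had 2, 5 and 25. The share of miR-194-2-3p in its pair was 90.0% at 11 days, from 20 reads (68.3 to 98.8%), and 63.2% at 17 days (50.7 to 74.6%). The epithelial miR-802-5p, known from gut, liver and pancreas, had 5.32 CPM at 11 days, 37.5 CPM at 15 days and 198 CPM at 17 days. Its highest level was 2625.5 CPM in smooth muscle. In liver it had 1735 CPM, where miR-215-5p had 5.76 CPM. miR-122-5p had 1062, 11059 and 12092 CPM, so by title most of its difference in CPM lay before 15 days and most of that of miR-215-5p after. The part of hepatic and epithelial tissue in the embryo values was not tested.

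**Figure D5:**
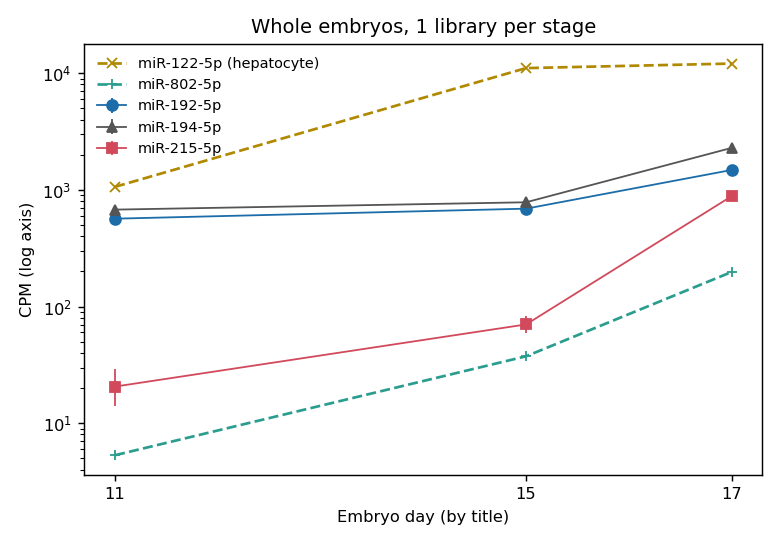
Levels of miR-192-5p, miR-194-5p and miR-215-5p in whole embryos of 11, 15 and 17 days, on a log axis in CPM with 95% counting intervals, 1 library a stage. Dashed lines are miR-122-5p and miR-802-5p, which are not members, drawn without intervals. By title, miR-215-5p is 42.8 times as high at 17 days as at 11 days, and miR-192-5p 2.62 times. Another label field of the 17-day library gives 15 days.

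Low but countable miR-215-5p reads were found in libraries with little miR-192-5p. The smooth muscle library of the same series had 166601 reads of miR-215-5p. Whether the low counts elsewhere came from the tissues themselves was not tested. Spinal cord had 115 reads of miR-215-5p (55.3 CPM) and 10 of miR-215-3p, against 6 and 0 in brain (1.90 CPM of miR-215-5p), while miR-192-5p was close in both, at 179.5 CPM in spinal cord and 139.5 CPM in brain. The miR-192-5p share was 76.4% in spinal cord (72.4 to 80.1%) and 98.7% in brain (97.1 to 99.5%), so their intervals do not overlap. Heart, at 82.1%, spleen, at 88.9%, and testis, at 69.2% (60.0 to 77.4%), also had chromosome 1 reads. Spinal cord and heart had the lowest sums of the 5 miR-200 family strands of all libraries, at 72.7 CPM and 86.6 CPM. In testis the 36 miR-215-5p reads come from the shallowest library.

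Finally, the names whose levels followed each cluster were listed by Pearson r of log2(CPM + 5) over the 15 libraries, which share their depth scaling; the values are a description. Among members, miR-192-5p was closest to miR-192-3p (0.98), miR-194-5p (0.97) and miR-194-2-3p (0.97), and miR-215-5p to miR-215-3p (0.97) and miR-194-1-3p (0.91). Between miR-192-5p and miR-215-5p r was 0.52, and 0.17 without smooth muscle. Outside the family, the 5 names most like miR-192-5p were miR-802-3p (0.78), miR-6538 (0.77), miR-802-5p (0.76), miR-455-3p (0.66) and miR-26b-3p (0.63). The 5 most like miR-215-5p were miR-23a-5p (0.60), miR-143-5p (0.58), miR-27a-5p (0.57), miR-145a-5p (0.57) and miR-143-3p (0.57). miR-143 and miR-145a are known as smooth muscle miRNAs, and without smooth muscle the r of miR-143-3p was 0.42. The same miRNA had its highest level in stomach, at 174725 CPM, against 105347 CPM in smooth muscle.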

How the data were processed

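The authors deposited 1 table per library of whole-number read counts per mature miRNA name, not normalized. Per the labels' protocols, total RNA was size-selected, ligated to randomized adapters, amplified and sequenced on a MiSeq; the submitters' processing notes name bcl2fastq 1.8.4, cutadapt, BWA, bedtools and the build mm10. How reads matching several places were counted is not given in the sources used here, which bears on miR-194-5p.

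From the counts, CPM on the total of listed reads, exact Poisson intervals for levels, exact Clopper-Pearson intervals for shares and conditional exact intervals for ratios were computed (Python 3.11.15, scipy 1.17.1). Depth was 148052 to 3161463 reads, and 3 reads were taken as the limit for a count of 0 in figures and ratios. Each tissue or stage is its own group of 1 library, so no p-value was computed. Members, marker lists and comparisons were chosen with earlier results of these data known. The names given as alike were the 5 with the highest Pearson r outside the members. Alternatives were TMM (edgeR 4.0.16, R 4.3.3), median-of-ratios scaling, pseudocounts of 1 and 20 CPM, no filter, other sets of libraries to compare with, and other strand or read minimums. The counting of names past 4-fold was run on simulated counts with the same profile in every library and known rises in kidney among abundant names. That run does not show how the rule performs on tissues with different profiles or on names with few reads. Sequences and positions are from RefSeq tables of GRCm38.p6, in which all 7 members were found, and overlaps from GENCODE on the same build.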

Additional observations from a re-analysis of the deposited data

How the results depend on the processing

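No paired analysis was possible because each tissue has 1 library and the labels carry no replicate numbers. The counts of members past 4-fold stayed within 1.5 times of those reported under both scalings, both pseudocounts, no filter, comparison with the other tissues without embryos, and without testis or smooth muscle. With 20 CPM added, miR-194-2-3p in kidney was at 1.79, and 3 members were past 4-fold there, against 3.86% of all names. Against the mean of the other libraries, 0 members were past 4-fold in kidney (all names 1.61%), 2 in liver (1.29%) and 0 in stomach (1.61%). There miR-194-5p was at -0.14 in kidney, and in stomach miR-192-5p was at -1.004, miR-194-5p at -0.64, miR-215-5p at -2.29, miR-215-3p at -1.65 and miR-194-1-3p at -0.41. With smooth muscle left out of that mean, an alternative chosen after seeing the data, 3 members were past 4-fold in kidney (all names 2.09%), 4 in liver (1.77%) and 3 in stomach (3.05%), where miR-192-5p was at -0.14. The miR-192-5p share in smooth muscle was 25.97% with both strands summed. Of the 5 names most like miR-192-5p, 3 were shared with Spearman's rho and 1 without smooth muscle; of those most like miR-215-5p, 0 and 2 were. A minimum of 100 reads leaves no miR-194 3p share in kidney and the embryos. Depth limits the passenger strands most, and with 1 library a tissue no biological spread is known.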
